A study of Mus musculus with 16 samples.

Results

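The mouse mitochondrial genome carries 37 genes, of which 13 encode subunits of the respiratory chain, 2 encode the RNAs of the mitochondrial ribosome and 22 encode tRNAs. They were taken as every row of the deposited table whose Ensembl identifier maps to a mouse symbol starting mt-, which gave 37 of 53801 genes. RNA was sequenced from a mouse MLL-AF9 acute myeloid leukemia line, a blood progenitor line transformed by a fusion of the MLL and AF9 genes and grown in RPMI medium with FBS, IL-3 and SCF. There were 4 groups of 4 libraries: MCT4-KO cells at 2% oxygen, control cells at 2% oxygen, MCT4-KO cells at 20% oxygen and control cells at 20% oxygen. In all 4 groups Cas9 had been induced with 4-OHT. The MCT4-KO cells carried CRISPR-Cas9 directed at MCT4, a lactate and proton exporter of the plasma membrane encoded by Slc16a3, and the control cells carried a non-targeting guide RNA. The labels name neither a clone nor a pool. Whether the replicates came from separate cultures is not stated, and p-values here reflect only how these libraries varied, possibly for technical reasons.

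Each library held 21192179 to 28871459 estimated counts, and 13774 genes were tested. Slc16a3 averaged 365 CPM (counts scaled to a common library total with TMM factors) in MCT4-KO and 811.7 CPM in control libraries at 2% oxygen, and 79.89 CPM in MCT4-KO and 209.9 CPM in control libraries at 20% oxygen. All 9 myeloid leukemia markers were present, at 81.54 to 596.2 CPM in every library, while T cell markers stayed at or below 0.03696 CPM, with Cd3e and Cd4 at 0, erythroid markers at or below 0.6959 CPM and megakaryocyte markers at 0.04347 to 4.116 CPM. Of the stromal and endothelial markers Pecam1, which leukocytes also express, reached 300.9 CPM. TMM factors were 0.94356 to 0.95308 in MCT4-KO and 0.91239 to 0.92658 in control libraries at 2% oxygen, and 1.0674 to 1.0783 in MCT4-KO and 1.0556 to 1.0706 in control libraries at 20% oxygen. Scaling by library size alone therefore moved the median log2 fold change of all genes between the oxygen levels to -0.192 in MCT4-KO and -0.221 in control cells, and the share of calls that were higher from 49.3% to 35.4% and from 49.4% to 35.2%. The same split was 63.1% in place of 50.4% for MCT4-KO against control at 2% oxygen, 60.1% in place of 50.8% at 20% oxygen and 60.1% in place of 50.6% for the interaction. Among the controls at 2% oxygen, replicate 4 lay apart, with a chi-square of 8.67 to 12.89 per gene against the other 3 libraries. Results that rest on it are given without it as well. Pairs of libraries at 20% oxygen reached 9.22 among the controls and 7.71 among the MCT4-KO libraries.

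In mammals both strands of the circular mitochondrial genome are transcribed into long precursors. Most genes lie on the transcript of the heavy strand, and the tRNAs between them are cut out to release the mRNAs and rRNAs. The transcript of the light strand yields mt-Nd6 and several tRNAs. Nuclear genes supply the polymerase, the nucleases, the poly(A) polymerase and the RNA-binding proteins for all of this, and also most subunits of complexes I, III, IV and V, which the 13 proteins join.

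Sequences that bear on how the genes can be counted are shown first, from GENCODE vM21 transcripts (GRCm38). Neighbouring genes share bases, which are in capitals, and a read that lies wholly within a shared stretch fits both genes.
mt-Atp8/mt-Atp6 overlap (chrM:7917-7979, plus strand): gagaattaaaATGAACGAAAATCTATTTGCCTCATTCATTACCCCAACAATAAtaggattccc
mt-Nd4l/mt-Nd4 overlap (chrM:10147-10193, plus strand): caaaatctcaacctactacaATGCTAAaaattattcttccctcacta
mt-Nd5/mt-Nd6 overlap (chrM:13532-13585, plus strand): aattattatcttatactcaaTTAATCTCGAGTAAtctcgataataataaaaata
The overlaps run over 43, 7 and 14 bases. In the first and second pair both genes lie on the heavy-strand transcript and are known to share an mRNA. In the third, mt-Nd5 is read from the heavy-strand transcript and mt-Nd6 from the light-strand transcript, and the strand setting of the counting is not given in the sources used here.

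The libraries were made from poly(A)-selected RNA, so which molecules were seen depends at least in part on the tail. The last 30 bases of 5 protein genes and of both rRNA genes are shown as annotated, with the stop of the protein genes in capitals.
mt-Co3 (chrM:9361-9390, plus strand): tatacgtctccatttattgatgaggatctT
mt-Nd4 (chrM:11515-11544, plus strand): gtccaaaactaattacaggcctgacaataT
mt-Cytb (chrM:15259-15288, plus strand): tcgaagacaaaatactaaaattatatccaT
mt-Nd3 (chrM:9777-9806, plus strand): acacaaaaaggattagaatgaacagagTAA
mt-Nd6 (chrM:13552-13581, minus strand): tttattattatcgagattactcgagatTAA
mt-Rnr1 (chrM:995-1024, plus strand): aagcatactggaaagtgtgcttggaataat
mt-Rnr2 (chrM:2646-2675, plus strand): atacgtacaccctctaacctagagaaggtt
The mt-Co3, mt-Nd4 and mt-Cytb genes end in a lone T, and it is textbook knowledge that the poly(A) tail completes such a stop. In human mitochondria the mRNA of ND6 carries little or no tail and the rRNAs only a short one. Levels of mt-Nd6 and of the rRNAs in poly(A)-selected RNA therefore cannot be compared with those of the other mRNAs as molecules per cell.

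A block of pseudogenes on chromosome 1 (GRCm38, chr1:24611535-24616197, minus strand) repeats part of the mitochondrial genome, from mt-Co1 to mt-Nd4. The copies of mt-Co2 (681 bases), mt-Atp6 (678), mt-Co3 (783), mt-Nd4l (294) and mt-Nd4 (876) have no difference from the gene. The copy of mt-Nd3, Gm28438, differs at 1 of 345 bases, T3C counted from the first base of the gene, shown in capitals.
mt-Nd3 (chrM:9459-9481, plus strand): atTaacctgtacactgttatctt
Gm28438 (chr1:24613097-24613119, minus strand): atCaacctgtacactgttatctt
Reads that lie within these copies, other than those over that base of mt-Nd3, have the same letters in gene and copy. As deposited, 92.9% of the mt-Atp6 and Gm10925 counts stood on the copy, with a range of 85.11% to 98.72% over the 16 libraries. The copy held 81.2% for mt-Co3 (Gm28437), 76.27% for mt-Nd4l (Gm10222) and 71.52% for mt-Nd3, and 65.43% for mt-Co2 (Gm28661, with a trace on Gm13341 of chromosome 2). For mt-Nd4 all libraries had 0 counts on the identical copy Gm28439 except replicate 4 of the controls at 2% oxygen, where 17.1% were placed there. For mt-Co1 it was 0.04188%.

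For mt-Atp6 the placing of the counts varied more between libraries than their sum did. Without the copy, mt-Atp6 stood at 26.16, 38.35, 49.43 and 6.804 CPM in the 4 MCT4-KO libraries at 2% oxygen. With the copy added the same libraries had 573.4, 591.1, 565.3 and 528.6 CPM. In controls at 2% oxygen the 4 libraries had 57.22, 69.26, 35.46 and 36.18 CPM as deposited, and 500.8, 464.9, 409.3 and 366.9 CPM with the copy added. The deposited values overlapped, with a mean of 30.19 CPM in MCT4-KO and 49.53 CPM in control libraries, while all 4 MCT4-KO libraries lay above all 4 controls once the copy was added. Values for mt-Co2, mt-Atp6, mt-Co3, mt-Nd3, mt-Nd4l and mt-Nd4 are therefore given with the copies added where they differ from the deposited ones, and are named as such. Whether part of these counts came from the nuclear copies themselves was not tested.

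**Figure D1:**
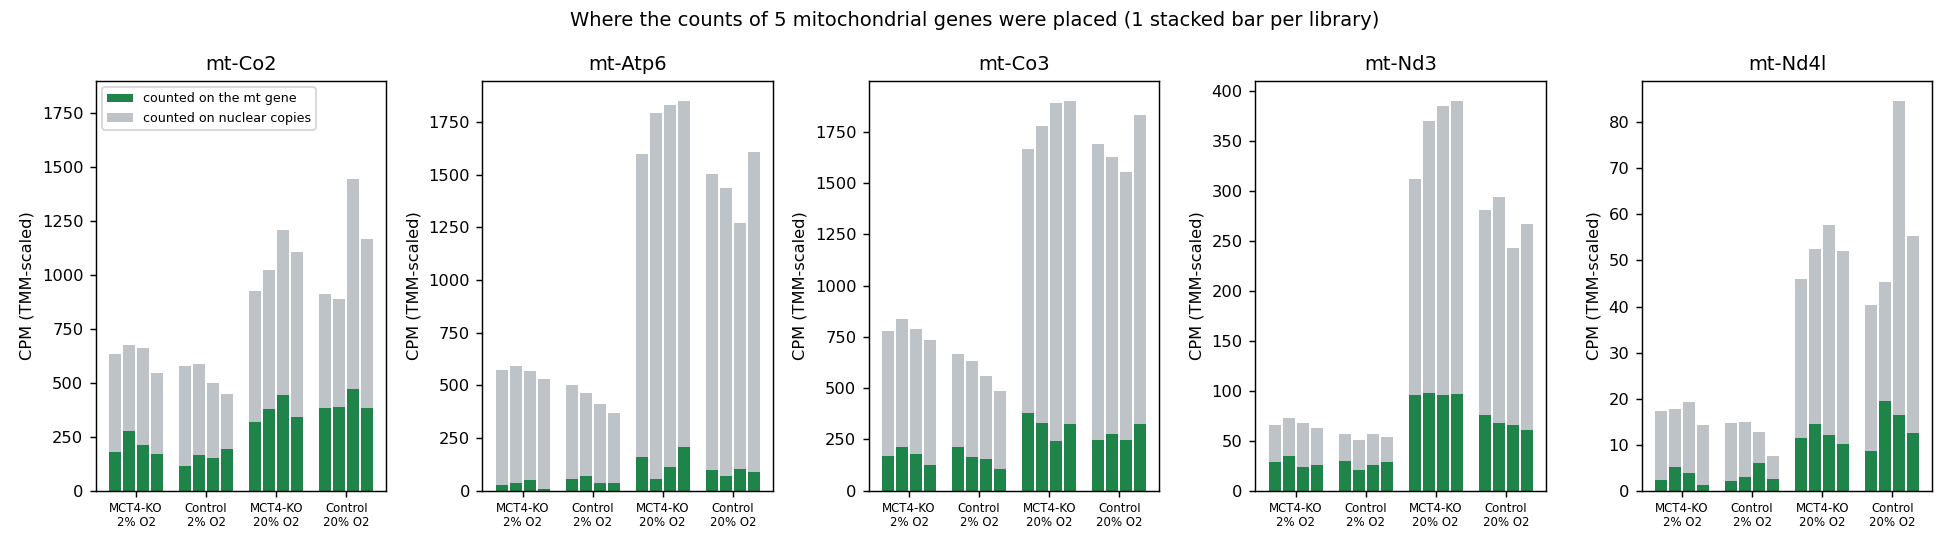
TMM-scaled CPM of 5 mitochondrial genes in each of the 16 libraries (1 stacked bar per library, replicates 1 to 4 from left to right), split into counts placed on the gene itself and on its nuclear copies. Over all libraries 65.43% (mt-Co2) to 92.9% (mt-Atp6) of the counts are on the copies, and the bars at 2% oxygen are lower than those at 20% for each gene.

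Over all genes the mitochondrially encoded RNAs, copies included, took 0.5331% ± 0.03871 of the counts in MCT4-KO and 0.4116% ± 0.06093 in control libraries at 2% oxygen, and 1.163% ± 0.1078 in MCT4-KO and 1.144% ± 0.1925 in control libraries at 20% oxygen (SD, n = 4). In bulk RNA fewer mitochondrial genomes, less RNA per genome and more RNA from nuclear genes cannot be told apart. The RNA was also poly(A)-selected, and whether the tails of these RNAs changed with oxygen or genotype was not tested. The 3 classes behaved differently, and they are described in turn.

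The 22 tRNA genes were nearly absent. The 14 on the heavy-strand transcript had 0 counts in all 16 libraries. Of the 8 on the light-strand transcript, 3 had any: mt-Ts1, a serine tRNA gene, had 4 counts in 4 libraries, mt-Tq, the glutamine tRNA gene, had 3 counts in 2 libraries, and mt-Tn, the asparagine tRNA gene, had 1 count. Where a library shows 0, as many as 3 counts remain possible (0.124 CPM at the mean depth), which covers counting error only. Mature tRNAs are short and carry no poly(A) tail, and none of the 22 passed the filter on low counts, so no comparison was made for them.

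At 2% oxygen mt-Rnr1 was called higher in both genotypes and mt-Rnr2 in MCT4-KO cells, while the protein genes were called lower. The RNA of the small ribosomal subunit, mt-Rnr1 (ENSMUSG00000064337, chrM:70-1024), had 351.4, 369.3, 338.9 and 329.2 CPM in MCT4-KO and 239.6, 249.8, 221.4 and 236.8 CPM in control libraries at 2% oxygen. At 20% oxygen it had 113.8, 122.0, 134.3 and 124.8 CPM in MCT4-KO and 112.2, 124.3, 158.7 and 143.0 CPM in control libraries. Every 2% library lay above every 20% library, and at 2% oxygen every MCT4-KO library lay above every control. The fold change of 2% over 20% oxygen was 1.49 ± 0.076 on the log2 scale in MCT4-KO cells (SE, edgeR adjusted p = 3.05e-13) and 0.82 ± 0.076 in control cells (edgeR adjusted p = 3.73e-09). The difference of the 2 responses, 0.67 ± 0.11, passed the test as well (edgeR adjusted p = 0.000173).

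The RNA of the large subunit, mt-Rnr2 (ENSMUSG00000064339, chrM:1094-2675), had 381.5, 352.3, 360.3 and 351.7 CPM in MCT4-KO and 252.5, 269.7, 251.5 and 292.0 CPM in control libraries at 2% oxygen. At 20% oxygen it had 266.3, 302.1, 335.6 and 311.6 CPM in MCT4-KO and 230.1, 247.8, 335.5 and 327.1 CPM in control libraries. The MCT4-KO libraries at 2% oxygen lay above all the others, and the controls at 2% lay among those at 20%. In MCT4-KO cells it rose by 0.25 ± 0.093 (edgeR adjusted p = 0.0204), a call lost when libraries were scaled by size alone (0.072) or without replicate 1 of MCT4-KO at 20% or at 2% oxygen. In control cells it stood at -0.10 ± 0.094 and was not called (edgeR adjusted p = 0.350), but under library size scaling it was called lower at -0.30. Under that scaling the median of all genes stood at -0.192 in MCT4-KO and -0.221 in control cells.

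Both rRNAs lie side by side on the heavy-strand transcript, separated by a single tRNA gene, yet their ratio moved with oxygen. There were 92.1, 104.8, 94.06 and 93.6 mt-Rnr1 counts per 100 mt-Rnr2 counts in MCT4-KO and 94.92, 92.63, 88.02 and 81.1 in control libraries at 2% oxygen. At 20% oxygen there were 42.72, 40.39, 40.02 and 40.07 in MCT4-KO and 48.76, 50.15, 47.31 and 43.71 in control libraries. Every 2% library thus lay far above every 20% library, and at 20% oxygen every MCT4-KO library lay below every control, while at 2% the genotypes overlapped. Since both RNAs are counted in the same library, this ratio does not depend on the scaling. Whether a difference in their tails moved with oxygen was not tested.

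**Figure D2:**
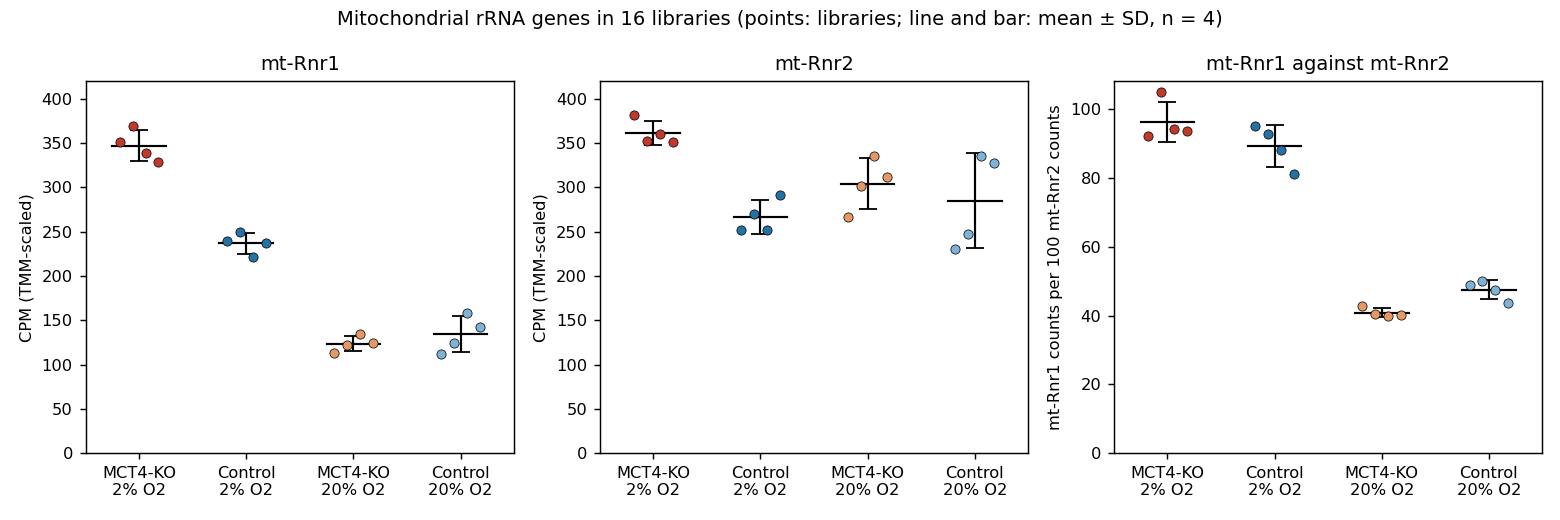
TMM-scaled CPM of mt-Rnr1 and mt-Rnr2, and mt-Rnr1 counts per 100 mt-Rnr2 counts, with 1 point per library and the mean ± SD of each group (n = 4). The ratio stands at 81.1 to 104.8 in the 8 libraries at 2% oxygen and at 40.02 to 50.15 in the 8 libraries at 20%.

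All 13 protein genes fell at 2% oxygen in both genotypes, as deposited and with the copies added. In MCT4-KO cells 13 of 13 were called lower and 0 higher, where 38.7% of all tested genes were called lower and 37.7% higher. In control cells 13 of 13 were called lower and 0 higher, where 39.6% of all tested genes were called lower and 38.7% higher. The rRNA genes made 2 higher calls in MCT4-KO and 1 in control cells, and 0 lower calls. With the copies added the median log2 fold change of the 13 was -1.22 in MCT4-KO and -1.76 in control cells, beside medians of all tested genes of -0.0139 and -0.0169 as deposited. The shares of all genes called were the same to the digits given with copies added. In both genotypes each of the 13 had all 4 libraries at 2% oxygen below all 4 at 20%. The share of all tested genes that separate in this way was not counted. The 2 comparisons share no library. The direction held in all 25 fits to the deposited counts. The call held in all of them for 12 genes in each genotype, the exceptions being mt-Co1 in MCT4-KO and mt-Atp6 in control cells. Summed, the 13 genes with copies took 0.4659% ± 0.03733 of all counts in MCT4-KO and 0.3652% ± 0.0614 in control libraries at 2% oxygen, and 1.117% ± 0.1038 in MCT4-KO and 1.1% ± 0.1849 in control libraries at 20% oxygen (SD, n = 4).

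**Figure D3:**
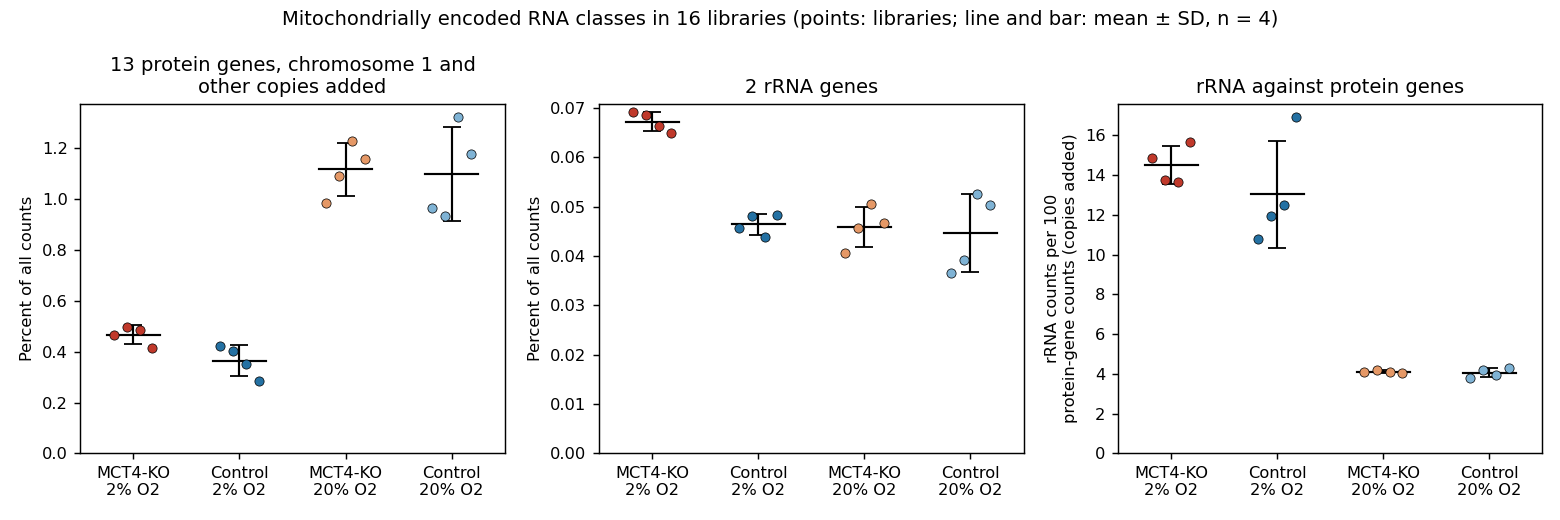
Percent of all counts from the 13 protein genes with copies added and from the 2 rRNA genes, and rRNA counts per 100 protein-gene counts, with 1 point per library and the mean ± SD of each group (n = 4). The protein genes are lower at 2% than at 20% oxygen in both genotypes, the rRNA genes are highest in MCT4-KO at 2% oxygen, and the ratio averages 14.48 in MCT4-KO and 13.04 in control libraries at 2% oxygen, and 4.107 in MCT4-KO and 4.056 in control libraries at 20%.

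The fall was not of one size across the 13 genes. Among the 7 complex I genes it was deepest for mt-Nd3, but only with its copy added. That sum was 66.0, 72.87, 67.29 and 62.93 CPM in MCT4-KO and 56.77, 51.08, 57.04 and 53.73 CPM in control libraries at 2% oxygen. At 20% oxygen the same sum was 312.3, 370.1, 385.2 and 390.8 CPM in MCT4-KO and 280.7, 293.7, 243.6 and 267.3 CPM in control libraries. No 2% library came near any 20% library. The log2 fold change was -2.44 ± 0.069 in MCT4-KO (edgeR adjusted p = 1.44e-17) and -2.31 ± 0.070 in control cells (edgeR adjusted p = 3.57e-17). As deposited mt-Nd3 stood at -1.78 ± 0.097 in MCT4-KO cells, behind mt-Nd4l at -1.94. In control cells it stood at -1.37 ± 0.10 as deposited, the smallest fall of the 7. The copy held 52.27% to 65.33% of the counts in MCT4-KO and 46.26% to 59.44% in control libraries at 2% oxygen. At 20% oxygen it held 69.19% to 75.2% in MCT4-KO and 72.89% to 77.2% in control libraries. With copies added where they exist, the other complex I genes on the heavy strand fell less. In MCT4-KO cells mt-Nd1 stood at -0.95, mt-Nd2 at -1.22, mt-Nd4l at -1.60, mt-Nd4 at -1.50 and mt-Nd5 at -1.14. In control cells the same genes stood at -1.48, -1.54, -2.16, -2.06 and -1.76. Each of these changes was larger in size in control than in MCT4-KO cells, but of the 5 only mt-Nd1 passed the test of the difference.

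Complex III has a single mitochondrially encoded subunit, cytochrome b. Its gene mt-Cytb (ENSMUSG00000064370, chrM:14145-15288) had 208.1, 234.0, 230.3 and 186.3 CPM in MCT4-KO and 238.5, 217.6, 192.7 and 142.7 CPM in control libraries at 2% oxygen. At 20% oxygen it had 804.4, 878.8, 1036 and 940.4 CPM in MCT4-KO and 723.8, 717.8, 1226 and 937.9 CPM in control libraries. The oxygen levels were far apart and the genotypes overlapped at both. The log2 fold change was -2.09 ± 0.15 in MCT4-KO (edgeR adjusted p = 1.12e-10) and -2.19 ± 0.15 in control cells (edgeR adjusted p = 5.02e-11).

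Complex IV, cytochrome c oxidase, has its 3 catalytic core subunits from this genome, and of the 13 genes mt-Co1 and mt-Co2 fell least with copies added. The most abundant of them, mt-Co1 (ENSMUSG00000064351, chrM:5328-6872), had 1687, 1794, 1768 and 1421 CPM in MCT4-KO and 1702, 1592, 1380 and 1112 CPM in control libraries at 2% oxygen. At 20% oxygen it had 1955, 2094, 2547 and 2315 CPM in MCT4-KO and 2049, 1941, 3633 and 2738 CPM in control libraries. The oxygen levels did not overlap in either genotype, though the nearest libraries were close. The log2 fold change was -0.42 ± 0.15 in MCT4-KO (edgeR adjusted p = 0.0185) and -0.84 ± 0.15 in control cells (edgeR adjusted p = 4.94e-05). The call in MCT4-KO cells was lost without replicate 3 at 20% or replicate 4 at 2% oxygen. With copies added, mt-Co2 stood at -0.76 ± 0.12 and mt-Co3 at -1.21 ± 0.074 in MCT4-KO cells, and at -1.06 ± 0.12 and -1.52 ± 0.075 in control cells. As deposited mt-Co3 stood at -0.89 in MCT4-KO and -0.79 in control cells, a smaller change.

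Complex V, the ATP synthase, takes 2 subunits of its membrane sector from the overlapping pair printed first. For mt-Atp8 (ENSMUSG00000064356, chrM:7766-7969), which has no counted copy, the libraries had 36.13, 35.52, 34.64 and 34.15 CPM in MCT4-KO and 26.66, 23.36, 23.34 and 25.15 CPM in control libraries at 2% oxygen. At 20% oxygen they had 103.8, 144.0, 121.2 and 124.8 CPM in MCT4-KO and 124.7, 120.5, 103.5 and 97.68 CPM in control libraries. The log2 fold change was -1.82 ± 0.086 in MCT4-KO (edgeR adjusted p = 8.12e-14) and -2.18 ± 0.090 in control cells (edgeR adjusted p = 7.49e-15). With its copy added mt-Atp6 stood at -1.65 ± 0.080 in MCT4-KO and -1.74 ± 0.080 in control cells. As deposited it was -2.13 ± 0.38 and -0.84 ± 0.36, and the call in control cells (edgeR adjusted p = 0.0420) was lost in 8 of 25 alternatives. Reads that lie wholly within the 43 shared bases fit both genes. The deposited mt-Atp8 counts were whole in all 16 libraries, so no split into fractions is seen there. How such reads were placed is not known, and the difference between the members of this pair stays uncertain to that extent.

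The light strand yields mt-Nd6 (ENSMUSG00000064368, chrM:13552-14070), another complex I subunit. It had 34.36, 34.96, 39.61 and 32.23 CPM in MCT4-KO and 26.23, 27.03, 24.52 and 23.23 CPM in control libraries at 2% oxygen. At 20% oxygen it had 55.38, 73.34, 84.48 and 80.04 CPM in MCT4-KO and 69.26, 66.68, 117.4 and 90.25 CPM in control libraries. No library at 2% oxygen reached those at 20%. The log2 fold change was -1.05 ± 0.15 in MCT4-KO (edgeR adjusted p = 1.52e-06) and -1.76 ± 0.15 in control cells (edgeR adjusted p = 1.26e-09). Per 100 counts of the 12 heavy-strand protein genes with copies, mt-Nd6 had 0.6704 to 0.7802 counts in MCT4-KO and 0.5782 to 0.7494 in control libraries at 2% oxygen, and 0.6023 to 0.7447 in MCT4-KO and 0.7602 to 0.9498 in control libraries at 20% oxygen. In control cells the 2% libraries lay below the 20% libraries. In MCT4-KO cells they overlapped. At 20% oxygen the MCT4-KO libraries lay below the controls. The overlap with mt-Nd5 covers 14 bases, and part of its reads could come from the other strand.

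With copies added, the fall along the heavy-strand transcript tended to be deeper with distance from the rRNA genes, but not evenly. Over the 12 heavy-strand protein genes Spearman's rho of log2 fold change with start position was -0.50 in MCT4-KO and -0.68 in control cells. The rho is given as a description, since the genes share libraries and transcripts, and was not computed for the deposited values. It was 0.50 and 0.35 with gene length, and 0.42 and 0.38 with GC content. The gene that starts after mt-Atp6, mt-Co3, fell less than both its neighbours mt-Atp6 and mt-Nd3, and mt-Nd5 fell less than mt-Nd4 before it.

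**Figure D4:**
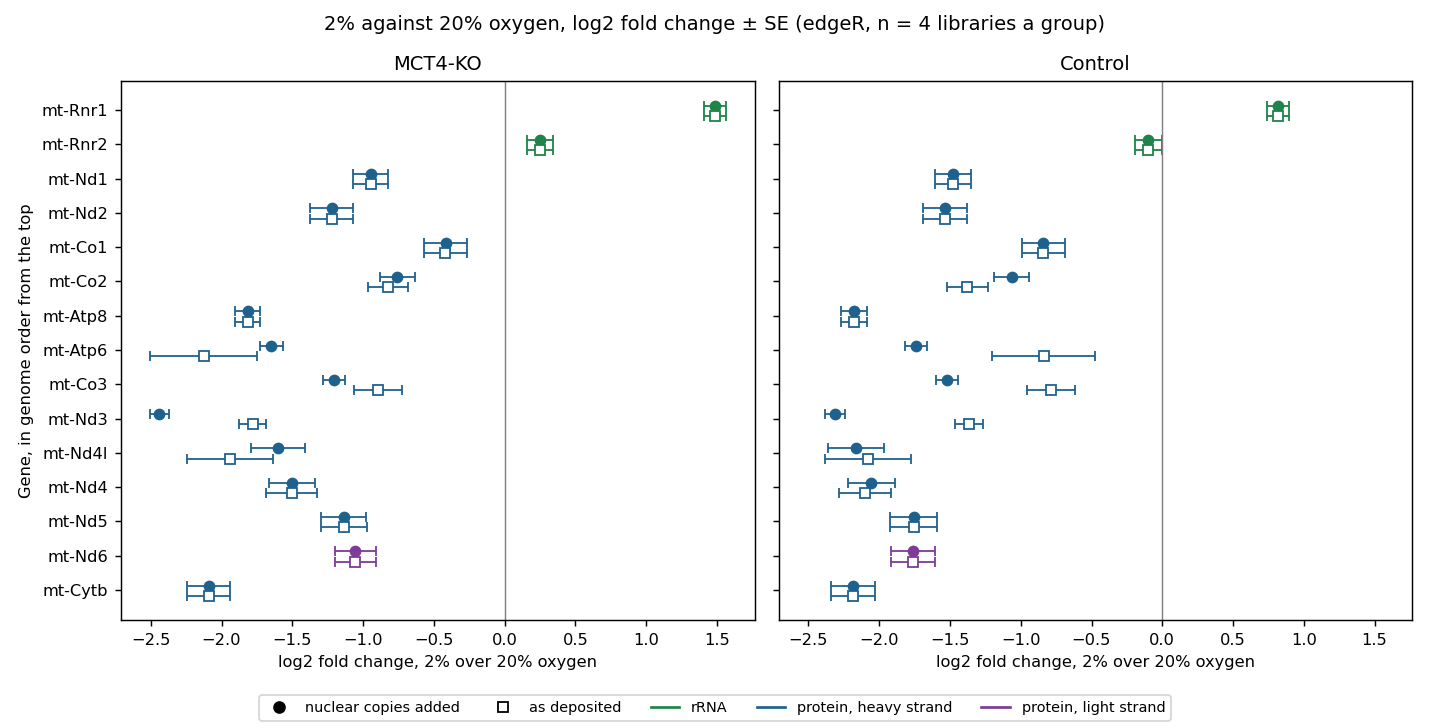
Log2 fold change of 2% over 20% oxygen ± SE (edgeR, n = 4 libraries a group) of the 2 rRNA and 13 protein genes in genome order, in MCT4-KO and in control cells, as deposited and with nuclear copies added. All 13 protein genes lie left of 0 in both panels, from -0.42 (mt-Co1) to -2.44 (mt-Nd3, copies added) in MCT4-KO cells, and mt-Rnr1 lies right of 0 in both.

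The unequal fall changed the order of the genes by counts per kilobase. Per kilobase of gene and with copies added, mt-Co1 led at 2% oxygen, at 1080 CPM per kilobase in MCT4-KO and 936.6 in control cells. In MCT4-KO cells mt-Co3 followed at 1001, a gap smaller than the SD of mt-Co1 over the libraries. At 20% oxygen mt-Atp6 led in MCT4-KO cells at 2597 CPM per kilobase, and in control cells mt-Co3, at 2140, and mt-Atp6, at 2136, stood level, while mt-Co1 had 1442 in MCT4-KO and 1677 in control cells. As a share of the counts of the 13 genes with copies, mt-Co1 held 32.75% to 34.59% in MCT4-KO and 35.63% to 37.31% in control libraries at 2% oxygen, and 20.66% to 22.27% in MCT4-KO and 21.97% to 29.13% in control libraries at 20% oxygen. The shares of the 2 oxygen levels did not overlap in either genotype. The lowest protein gene per kilobase on the heavy-strand transcript was mt-Nd4l, at 57.71 in MCT4-KO and 42.11 in control cells at 2% oxygen, and at 175.3 in MCT4-KO and 190.2 in control cells at 20% oxygen. It shares an mRNA with mt-Nd4, which had 138.2 in MCT4-KO and 100.8 in control cells at 2% oxygen. These values therefore order genes by their counts and not mRNAs by their level, which also holds for mt-Atp8 and mt-Atp6. For mt-Nd6, whose tail limits such a comparison, the values were 67.99 in MCT4-KO and 48.65 in control cells at 2% oxygen, and 141.3 in MCT4-KO and 165.5 in control cells at 20% oxygen.

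At 2% oxygen both rRNA genes and part of the protein genes were called higher in MCT4-KO than in control cells. As deposited, 7 of 13 protein genes and both rRNA genes were called higher, and 0 were lower, where 19.4% of all tested genes were called higher and 19.1% lower. The 7 were mt-Atp8, mt-Co2, mt-Nd1, mt-Nd2, mt-Nd4, mt-Nd5 and mt-Nd6, with log2 fold changes of 0.41 to 0.51. With copies added 9 of 13 were called, mt-Atp6, mt-Co3 and mt-Nd3 being added and mt-Co2 (0.26, edgeR adjusted p = 0.109) lost, and the shares of all genes stayed at 19.4% and 19.1%. The median over the 13 was 0.41 as deposited and 0.42 with copies added, beside -0.00404 for all tested genes. The summed share of counts of the 13 overlapped between the genotypes, with copies added at 0.4136% to 0.4989% in MCT4-KO and 0.2848% to 0.4226% in control libraries, while that of the rRNA genes did not.

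The calls of both rRNA genes, mt-Atp8 and mt-Nd1 did not depend on single libraries. For mt-Rnr1 the log2 fold change was 0.55 ± 0.074 (edgeR adjusted p = 9.31e-06) and for mt-Rnr2 0.44 ± 0.094 (edgeR adjusted p = 0.000975). For mt-Atp8 it was 0.51 ± 0.097 (edgeR adjusted p = 0.000347) and for mt-Nd1, whose product is a membrane subunit of complex I, 0.50 ± 0.13 (edgeR adjusted p = 0.00377). They were called in all 25 fits to the deposited counts. With copies added, mt-Co3 stood at 0.42 ± 0.074 (edgeR adjusted p = 0.000144), mt-Atp6 at 0.37 ± 0.078 (edgeR adjusted p = 0.000807) and mt-Nd3 at 0.30 ± 0.072 (edgeR adjusted p = 0.00249), all 3 called in each of 18 fits. All 4 MCT4-KO libraries lay above all 4 controls for these 7 genes, in mt-Nd3 and mt-Co3 and mt-Atp6 with copies added. The same held for mt-Nd4, mt-Nd5 and mt-Nd6, so this separation does not set the 7 apart. How many of all tested genes separate so was not counted.

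The remaining calls depended on single libraries. Without replicate 4 of the controls at 2% oxygen, the library that stood apart, the calls of mt-Nd2, mt-Nd4, mt-Nd5 and mt-Nd6 were lost, and 5 members were called as deposited in place of 9 and 7 with copies added in place of 11. With copies added the 9 protein-gene calls became 5 without that library or without replicate 3 of MCT4-KO at 2% oxygen, and 6 without replicate 3 of the controls or replicate 2 of MCT4-KO at 2% oxygen. Without replicate 3 of MCT4-KO, replicate 3 of the controls or replicate 2 of MCT4-KO at 2% oxygen the number called as deposited was 4, 5 and 5. In mt-Co1 the log2 fold change was 0.21 ± 0.15 (edgeR adjusted p = 0.311) and in mt-Cytb 0.12 ± 0.15 (edgeR adjusted p = 0.579), and neither was called. Both had control libraries above MCT4-KO ones, as the values above show.

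At 20% oxygen few of these genes differed between the genotypes. As deposited 1 of 13 protein genes was called higher and 0 lower, and 0 of 2 rRNA genes, where 4.96% of all tested genes were called higher and 4.8% lower. The gene was mt-Nd3, which as deposited had 96.19, 98.03, 95.51 and 97.09 CPM in MCT4-KO and 76.08, 67.91, 65.22 and 60.95 CPM in control libraries. The groups did not overlap, and the log2 fold change was 0.52 ± 0.089 (edgeR adjusted p = 0.000793). With its copy added it was 0.43 ± 0.063 (edgeR adjusted p = 0.000183), called in all 18 fits. With copies added mt-Atp6 was called as well, at 0.28 ± 0.077 (edgeR adjusted p = 0.0243), where 4.95% of all tested genes were called higher and 4.79% lower. This call was lost in 5 of 17 alternatives, each of which left out 1 library: replicate 2 or 3 of the controls or replicate 2, 3 or 4 of MCT4-KO at 20% oxygen. The groups overlapped for mt-Atp6, at 1599, 1794, 1829 and 1851 CPM in MCT4-KO and 1503, 1438, 1271 and 1607 CPM in control libraries.

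**Figure D5:**
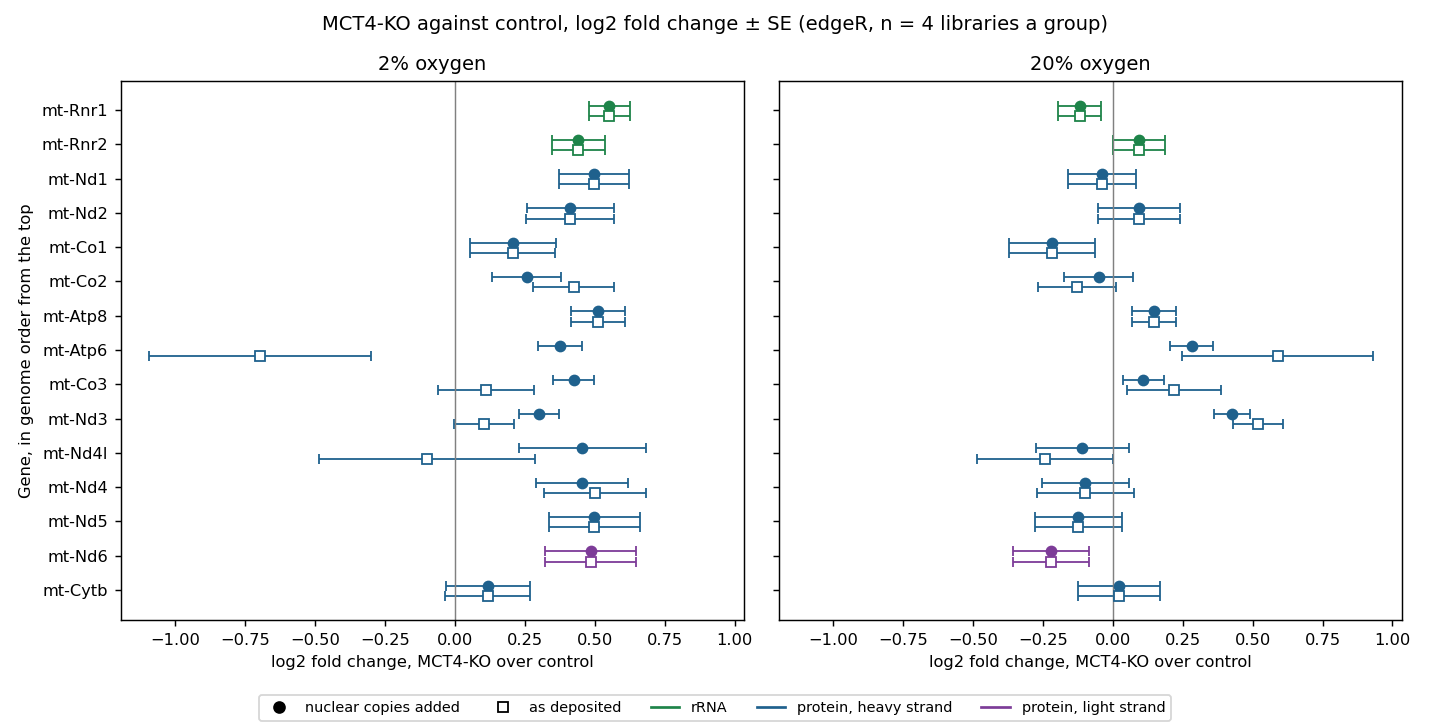
Log2 fold change of MCT4-KO over control ± SE (edgeR, n = 4 libraries a group) of the 2 rRNA and 13 protein genes in genome order, at 2% and at 20% oxygen, as deposited and with nuclear copies added. At 2% oxygen all values with copies added lie right of 0, from 0.12 (mt-Cytb) to 0.55 (mt-Rnr1), and at 20% oxygen mt-Nd3 stands at 0.43 with its copy added.

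The test of whether the knockout effect differed between the oxygen levels called 3 protein genes and mt-Rnr1 higher, and 1 protein gene lower, where 11.6% of all tested genes were called higher and 11.3% lower. A higher value means that MCT4-KO stood further above control at 2% than at 20% oxygen. For mt-Nd6 it was 0.71 ± 0.21 (edgeR adjusted p = 0.0206), for mt-Nd1 0.53 ± 0.17 (edgeR adjusted p = 0.0325) and for mt-Atp8 0.36 ± 0.12 (edgeR adjusted p = 0.0408). The lower call was mt-Nd3 at -0.41 ± 0.14 (edgeR adjusted p = 0.0379), and with its copy added it stood at -0.13 ± 0.096 (edgeR adjusted p = 0.374), while mt-Co3 with its copy was called at 0.31 ± 0.10 (edgeR adjusted p = 0.0339). The mt-Rnr1 difference was called in all 25 fits, with values of 0.58 to 0.75. The mt-Nd6 call was lost in 1 of 25 alternatives, without replicate 3 of MCT4-KO at 2% oxygen. The mt-Nd1, mt-Atp8 and mt-Nd3 calls were lost in 10, 13 and 15 of 25, and the mt-Co3 call with its copy in 8 of 17.

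The libraries of a group differed in a patterned way. In controls at 20% oxygen, with copies added, replicate 3 was the highest of 4 for 9 of the 13 protein genes and the lowest for 3 others. It had 1.62 times the mean of the other 3 libraries for mt-Co1, 1.80 times for mt-Nd4l and 1.55 times for mt-Cytb, but 0.838 times for mt-Atp6, 0.868 times for mt-Nd3 and 0.906 times for mt-Co3 and mt-Atp8. Those 4 genes are neighbours, from mt-Atp8 to mt-Nd3, with only a tRNA gene between the last pair. Their SD in this group was 6.996% to 11.69% of the mean, against 22.23% to 35.15% for the other 9 protein genes. In controls at 2% oxygen replicate 4 was the lowest for 11 of the 13, down to 0.529 times the mean of the others for mt-Nd4l, while mt-Atp8 (1.03 times) and mt-Nd3 (0.978 times) were not lowered. Replicate 1 of MCT4-KO at 20% oxygen and replicate 4 of MCT4-KO at 2% oxygen were the lowest of their groups for all 13. The share of these within-group differences in the results was not tested beyond leaving the libraries out.

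A list of 53 tested nuclear genes held factors for mitochondrial transcription, RNA processing and RNA stability, together with genes for replication and upkeep of mitochondrial DNA, such as Polg and Mgme1, and nuclear transcription factors such as Esrra. At 2% oxygen 37 were called lower and 5 higher in MCT4-KO cells, with a median log2 fold change of -0.36, and 40 lower and 4 higher in control cells, with a median of -0.51. Of all tested genes 38.7% were called lower and 37.7% higher in MCT4-KO cells, and 39.6% lower and 38.7% higher in control cells. In MCT4-KO cells Angel2 stood at -0.99 ± 0.042, Mgme1, a mitochondrial exonuclease that acts on DNA, at -1.22 ± 0.054 and Mterf3, a factor bound to mitochondrial DNA, at -1.45 ± 0.077. In control cells Angel2 stood at -1.12 ± 0.042, Mgme1 at -1.22 ± 0.055 and Pprc1, a coactivator related to PGC-1, at -1.60 ± 0.062. Hsd17b10, a subunit of mitochondrial RNase P, rose by 0.66 ± 0.043 in MCT4-KO and 0.48 ± 0.043 in control cells, and Slirp, which stabilises mitochondrial mRNAs together with Lrpprc, by 0.55 ± 0.063 and 0.30 ± 0.064. All of these passed the edgeR test. Under library size scaling 45 of the 53 were lower and 2 higher in MCT4-KO cells, and 48 lower and 1 higher in control cells. That scaling moved the median and the calls of all genes toward lower as well, as given with the TMM factors. These counts are therefore not to be set against the shares above.

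Nuclear subunits of complexes I, III, IV and V were listed by symbols starting Nduf, Uqcr, Cox and Atp5, without assembly factors. Membership in the complex was not checked gene by gene. Of those listed for complex I, 33 of 37 tested genes were called higher and 0 lower in MCT4-KO cells at 2% oxygen. In control cells it was 31 higher and 1 lower. For complex III it was 7 higher and 1 lower of 8 in MCT4-KO and 6 higher and 1 lower in control cells. For complex IV it was 12 higher and 1 lower of 13 in each genotype, and for complex V 16 higher and 0 lower of 17 in MCT4-KO and 15 higher and 1 lower in control cells. The shares of all tested genes called are those given for the list before. The medians ran from 0.36 (complex I) to 0.67 (complex IV) in MCT4-KO cells and from 0.33 to 0.65 in control cells, beside those near 0 for all genes. Ndufv3, an accessory subunit of complex I, rose by 1.65 ± 0.037 in MCT4-KO and 1.66 ± 0.037 in control cells, and Atp5d, of the rotor stalk of complex V, by 0.68 ± 0.041 and 0.70 ± 0.041. Uqcrc1, a core protein of complex III, rose by 0.58 ± 0.036 in MCT4-KO cells, and Uqcrh by 1.36 ± 0.064 in control cells. Cox6a2, the muscle form of a complex IV subunit, stood at -2.75 ± 0.080 in MCT4-KO and -2.89 ± 0.081 in control cells. Under library size scaling, which moved the calls of all genes toward lower, complex I had 23 higher and 2 lower in MCT4-KO cells. In control cells it had 18 higher and 4 lower under that scaling, and the medians of all 4 complexes stayed above 0 in both genotypes.

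In MCT4-KO against control cells at 2% oxygen 20 of the 53 listed genes were called higher and 5 lower, where 19.4% of all tested genes were called higher and 19.1% lower. Elac2, the nuclease that cuts tRNA 3′ ends, rose by 0.46 ± 0.039 (edgeR adjusted p = 5.39e-08), Ptcd3, a protein of the small mitochondrial ribosomal subunit, by 0.48 ± 0.043 (edgeR adjusted p = 1.07e-07) and Pprc1 by 0.51 ± 0.065 (edgeR adjusted p = 5.06e-06). Polg, the polymerase of mitochondrial DNA, was called lower at -0.16 ± 0.034 (edgeR adjusted p = 0.00125), as were Esrra at -0.16 ± 0.043 and Grsf1, an RNA-binding protein of mitochondrial RNA granules, at -0.12 ± 0.034. Of the nuclear subunits 5 were higher and 4 lower of 37 for complex I, and 2 higher and 1 lower of 17 for complex V. Complex III had 0 higher and 1 lower of 8, and complex IV 1 higher and 2 lower of 13. Under library size scaling there were 15 higher and 2 lower for complex I and 7 higher and 1 lower for complex V. That scaling moved the calls of all genes toward higher in this comparison, as given with the TMM factors. In the TMM-scaled fit the counts for the 4 complexes lie near or below the shares of all genes. At 20% oxygen 0 of the 53 were called higher and 3 lower, where 4.96% of all tested genes were called higher and 4.8% lower. The 3 were Hsd17b10 at -0.17 ± 0.044, Rnaseh1, which removes RNA from hybrids with DNA, at -0.20 ± 0.059 and Primpol, a primase and polymerase, at -0.19 ± 0.058. The interaction called 16 of the 53 higher and 1 lower, where 11.6% of all tested genes were called higher and 11.3% lower. Among them were Elac2 (0.44 ± 0.054), Pprc1 (0.53 ± 0.086) and Ptcd3 (0.40 ± 0.060), and Esrra was the lower one (-0.20 ± 0.058).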

How the data were processed

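Poly(A) RNA from 16 libraries was sequenced. HISAT2, RSEM and mm10 appear in the submitters' processing notes, but no version, annotation release or strand setting was found in the labels or headers. The authors deposited 1 table of expected counts per Ensembl gene, of which 10.1% were not whole, and all were rounded before testing. Symbols and sequences came from GENCODE vM21, which matched 53620 identifiers. Nuclear copies were found with BLAST 2.17.0 against its transcripts (at least 90% identity over 200 bases).

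Genes were kept by filterByExpr (99.9% of counts), scaled by TMM and fitted with a mean per group in edgeR 4.0.16 (R 4.3.3; quasi-likelihood F-test, a biological coefficient of variation of 4.61%, 12 residual degrees of freedom). Benjamini-Hochberg adjustment ran over 13774 genes, or 13766 with copies added, and an adjusted p under 0.05 made a call. Depth was 21192179 to 28871459 counts per library. Alternatives were DESeq2 1.42.0 size factors and Wald test, library size scaling, other filters, limma-voom (limma 3.58.1), the compared groups only, a replicate block, leaving out each library and adding nuclear copies; 2 combinations with added copies were chosen after seeing the data. The fit was tested on simulated data. All 37 genes could be named. From the list of mitochondrial RNA and DNA factors up to 3 called genes in each direction could be named per comparison, ranked by adjusted p. From each complex it was the called gene with the smallest adjusted p, in either direction. The members, the lists and the rule were chosen with earlier results of these data known.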

Additional observations from a re-analysis of the deposited data

Results flagged for a closer look

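The oxygen response of 5 members as deposited, and of 1 with its copy added, differed between MCT4-KO and control cells by the interaction test of edgeR. The values are log2 differences, positive where MCT4-KO stood further above control at 2% than at 20% oxygen: 0.67 for mt-Rnr1, 0.53 for mt-Nd1, 0.36 for mt-Atp8, 0.71 for mt-Nd6 and 0.31 for mt-Co3 with its copy, and -0.41 for mt-Nd3 as deposited.

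Single libraries lay far from the other 3 of their group, by Dixon's criterion for 4 values, in 5 quantities. Chance flags about 1 in 20 groups. The member levels made 80 groups, and only the mt-Co2 flag came from them. The other flags came from ratios, and the groups of shares and ratios come on top of the 80. In controls at 20% oxygen replicate 3 had 470.7 CPM of mt-Co2 as deposited. The ratios are those of the deposited counts, without copies. In MCT4-KO at 20% oxygen replicate 2 had 7.072 rRNA counts per 100 protein-gene counts, replicate 1 had 0.9863 mt-Nd6 counts per 100 heavy-strand protein-gene counts, and replicate 1 had 42.72 mt-Rnr1 counts per 100 mt-Rnr2 counts. In MCT4-KO at 2% oxygen replicate 2 had 104.8 mt-Rnr1 counts per 100 mt-Rnr2 counts.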

How the results depend on the processing

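The number of members called out of 15 was the same, or within 1.5 times, under most alternatives. For 2% against 20% oxygen it was 15 in MCT4-KO and 14 in control cells, and it stayed at 14 or 15 and at 13 to 15. For MCT4-KO against control at 20% oxygen it was 1, and 2 without a filter or with nuclear copies added. At 2% oxygen it was 9, and 4 to 9 when single libraries were left out. For the interaction it was 5, and 11 without a filter, 3 under the DESeq2 Wald test and 2 to 7 with single libraries left out. With the replicate block the numbers were 15, 13, 1, 9 and 7. The replicate number did not pair the libraries: same-numbered libraries deviated from their group means with correlations of -0.0494 to 0.0674.

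Some directions turned. With nuclear copies added mt-Atp6 and mt-Nd4l stood at 0.37 and 0.45 for MCT4-KO against control at 2% oxygen (-0.70 and -0.10 as deposited), and mt-Atp6 and mt-Co3 at 0.093 and 0.31 for the interaction (-1.29 and -0.11 as deposited). With single libraries left out, the values at 20% oxygen ran as follows: -0.14 to 0.11 for mt-Co2 with copies, -0.072 to 0.21 for mt-Cytb, -0.13 to 0.11 for mt-Nd1, -0.21 to 0.11 for mt-Nd4, -0.21 to 0.11 for mt-Nd4 with copies, -0.24 to 0.15 for mt-Nd4l with copies and -0.22 to 0.056 for mt-Nd5. At 2% oxygen they were -0.044 to 0.28 for mt-Co3, -0.0090 to 0.22 for mt-Cytb, -0.0098 to 0.19 for mt-Nd3 and -0.43 to 0.30 for mt-Nd4l. For the interaction they were -0.26 to 0.057 for mt-Co3, -0.090 to 0.20 for mt-Cytb and -0.19 to 0.54 for mt-Nd4l. Over all alternatives 97 values of single genes lost a call and 39 gained one, against 2220 that kept direction and side of the threshold.

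Adding copies moved the share of counts of the protein genes from 0.312% to 0.4659% in MCT4-KO and from 0.252% to 0.3652% in control libraries at 2% oxygen, and from 0.6746% to 1.117% in MCT4-KO and from 0.7049% to 1.1% in control libraries at 20%. The rRNA counts per 100 protein-gene counts fell to 14.48, 13.04, 4.107 and 4.056 in the same 4 groups, and mt-Nd6 per 100 heavy-strand counts to 0.7246, 0.6512, 0.7049 and 0.8271. With TMM-scaled totals the rRNA share at 2% oxygen was 0.07087% in MCT4-KO and 0.05033% in control libraries. The cause of these shifts, other than the added counts, was not tested. The tRNA genes had 8 counts in all, too few for any comparison.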
